A study of Mus musculus with 8 samples.

Results

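miR-31 is a microRNA, a short RNA that guides an Argonaute protein to messenger RNAs matching its seed, the stretch of bases near its 5′ end, and thereby lowers their output. It was followed here across mouse embryonic fibroblasts that lack Csk, the kinase that phosphorylates the tail of Src family kinases and holds them inactive. It was chosen by its name on the array, mmu-miR-31, and is 1 of 611 mouse microRNAs measured there. All cells were Csk-/- fibroblasts of the C57BL/6J strain, so the controls lacked endogenous Csk as well. The labels name a knockout of Csk only, so no group is stated to lack its own c-Src. The 4 groups were cells transfected with Csk together with c-Src (Csk+c-Src), cells given c-Src, cells given Csk, and cells given an empty vector (mock), with 2 arrays in each. The labels call the arrays of a group biological replicates, but the series text speaks only of duplicates, so p-values measure the spread between these arrays, which may be technical. The series title places the study in c-Src-mediated transformation. The promoter that drives the introduced genes and the number of clones behind each population are not given in the sources used here.

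miR-31 has been studied mainly in cancer and in wound healing. In human breast carcinoma cells it is known to restrain invasion and metastasis by lowering RhoA, radixin and an integrin subunit, while in other tumours, such as those of the colon, it is known to be raised. Both strands of its precursor are loaded into Argonaute to some extent. The array has separate probes for the usual guide strand, named miR-31, and for the other strand, named miR-31*.

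The sequences below are those of RefSeq on build GRCm38.p6 and are shown because the 2 strands are what the array names miR-31 and miR-31* stand for. Array names that give no arm were matched to the RefSeq arms by hand, from the naming in use, and the probe sequences were not used here. Capitals mark the seed, bases 2 to 8, in the mature strands, and the 2 mature strands in the hairpin.
miR-31: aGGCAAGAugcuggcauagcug
miR-31*: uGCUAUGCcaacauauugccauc
Mir31 hairpin: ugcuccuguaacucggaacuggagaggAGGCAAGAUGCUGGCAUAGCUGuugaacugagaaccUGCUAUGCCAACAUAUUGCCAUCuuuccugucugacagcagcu

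The hairpin gene, Mir31, lies at chr4:88910557-88910662 on the minus strand and is 106 bases long. The strand that becomes miR-31 takes up bases 28 to 49 of the hairpin and has 22 bases, and miR-31* takes up bases 64 to 86 and has 23. Mir31 lies within the span of the long noncoding RNA gene Gm49890. The table used gives no exons, so whether it is exonic or intronic there is not stated. The nearest protein-coding genes on either side are the interferon gene Ifne and Mtap, which encodes a methionine salvage enzyme. Among 1679 mature mouse names in the table, only miR-31-5p has its seed and only miR-31-3p has the seed of miR-31*. No other mouse microRNA in the table therefore shares either seed. The microRNA genes within 5 Mb of Mir31 are Mir491 and Mir6402. miR-491 had 0 detections over the 8 arrays, so it entered no test, and miR-6402 has no probe under that name, so no neighbouring microRNA could be set beside miR-31.

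Each array detected between 201 and 250 mouse microRNAs. A test was run on 243 of them, those that the 2 arrays of some group had both detected. Levels are given as scaled signal, in which an array's signals are divided by the 75th percentile of the 187 microRNAs that all arrays detected. The scanner software marked 753 spots as outliers on Csk array 2 and 276 to 372 elsewhere, and Csk array 2 also detected the fewest microRNAs. A single slide carried everything, and since its columns matched the groups, the slide column and the introduced genes cannot be told apart. The arrays carry no probes for Csk or c-Src, and the labels could not be checked by them. Of 8 fibroblast or mesenchymal microRNAs, 7 were detected, the exception being miR-145. Of 7 epithelial microRNAs, only miR-200b was detected, on 1 Csk array, and 0 of 6 blood cell microRNAs were. The endothelial microRNA miR-126-3p was detected on all 8 arrays, and 2 of 3 muscle and 1 of 5 embryonic stem cell microRNAs were detected on some. The summed scaled signal of the detected fibroblast markers was 8.28 and 8.51 on the Csk+c-Src arrays, 6.65 and 7.22 on the c-Src arrays, 10.9 and 11.7 on the Csk arrays, and 8.76 and 9.30 on the mock arrays. That sum was lowest where miR-31 was highest and highest where miR-31 was lowest, and its part in the results below was not tested. Its members did not all move with it. In the limma test used below, 4 of the 7 were higher and 3 lower in Csk against mock. In c-Src against mock 0 were higher and 5 lower. The shares of all tested microRNAs were 38.3% and 16.9% in the former, and 25.9% and 18.5% in the latter.

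miR-31 was bright on every array. It has 2 probes with 10 spots each, and all 160 of its spots over the 8 arrays were well above background. None of its spots was saturated, 2 were left out as outliers, and the spots of a probe varied by 1.19% to 8.09% (coefficient of variation). Before scaling, its signal was 2148 and 2031 on the Csk+c-Src arrays, 4000 and 3841 on the c-Src arrays, 1819 and 1482 on the Csk arrays, and 2002 and 1988 on the mock arrays. The c-Src arrays were thus the highest in the unscaled signal too, and Csk array 2 was the lowest. The share of the summed mouse microRNA signal held by miR-31 was 1.28% and 1.21% in Csk+c-Src cells, 2.04% and 1.96% in c-Src cells, 0.994% and 0.886% in Csk cells, and 1.37% and 1.31% in mock cells.

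In scaled signal miR-31 stood at 3.002 and 2.76 in Csk+c-Src cells, 4.97 and 5.07 in c-Src cells, 2.58 and 2.42 in Csk cells, and 3.18 and 3.15 in mock cells. The arrays of the 4 groups did not overlap. How many of the 243 tested microRNAs separate the groups in this way was not counted. In single comparisons 34.2% to 60.9% of them passed the test described below, so separation alone does not set miR-31 apart. The group means were 2.88 ± 0.17 in Csk+c-Src cells, 5.02 ± 0.07 in c-Src cells, 2.50 ± 0.11 in Csk cells and 3.17 ± 0.01 in mock cells (SD, n = 2 arrays each). An exact permutation test of the F statistic over all 105 ways to split the 8 arrays into 4 groups of 2 gave p = 0.00952 for differences among the groups, the smallest p this test can give. From high to low the order was c-Src, mock, Csk+c-Src and Csk. The difference between the neighbours Csk+c-Src and mock did not pass the test described next.

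**Figure D1:**
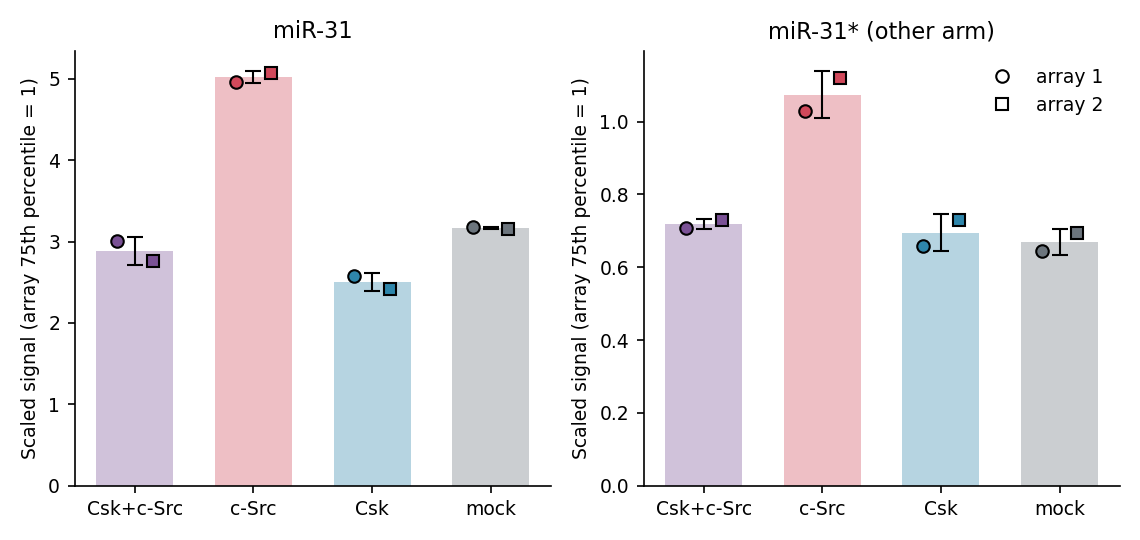
Scaled signal of miR-31 (left) and of miR-31*, the other strand of its hairpin (right), in the 4 groups. Symbols are single arrays, bars are means and error bars are SD over 2 arrays. The c-Src arrays of miR-31 lie at 4.97 and 5.07, above all other arrays, and the Csk arrays lie lowest for miR-31 but not for miR-31*.

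The first comparison asked what c-Src does to miR-31 in cells without Csk. miR-31 rose with c-Src, to a log2 level of 2.33 ± 0.02, against 1.66 ± 0.01 in mock cells (SD, n = 2 each). The log2 difference was 0.66 (SE 0.05, limma, Benjamini-Hochberg adjusted p = 0.000453 over the 243 microRNAs), which is 1.59-fold. Of all tested microRNAs, 44.4% passed in this comparison, so passing alone did not set miR-31 apart. By size it was number 19 among the 63 microRNAs that passed as higher. In slide row 1 the difference was 0.64 and in slide row 2 it was 0.68. It passed under all 24 alternatives tried, with log2 differences between 0.57 and 0.97. Other scalings moved the median of all microRNAs, which was 0.31 in the unscaled table and -0.48 after normexp background correction. The normexp correction used here added an offset of 50 to each spot, which narrows log2 differences of dim microRNAs. miR-31 lay 0.56 to 1.22 above the median of all microRNAs over 7 ways of scaling or background correction. These are total RNA values of cell populations, in which more cells with miR-31 and more miR-31 per cell cannot be told apart.

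The 2 probes of miR-31 were compared because they read the same strand with separate spots. Probe A_54_P1322 alone gave 0.65 (SE 0.06, limma adjusted p = 0.000819) and probe A_54_P1323 alone gave 0.69 (SE 0.05, limma adjusted p = 0.000235) for c-Src against mock. The authors' own gene-level signal, which the software sums over the probes, stood at 2619 and 2491 in c-Src cells and at 1308 and 1301 in mock cells. These values are not scaled between arrays, and the software error of 7.29% to 7.33% beside them describes spots within an array, not the spread between samples.

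**Figure D2:**
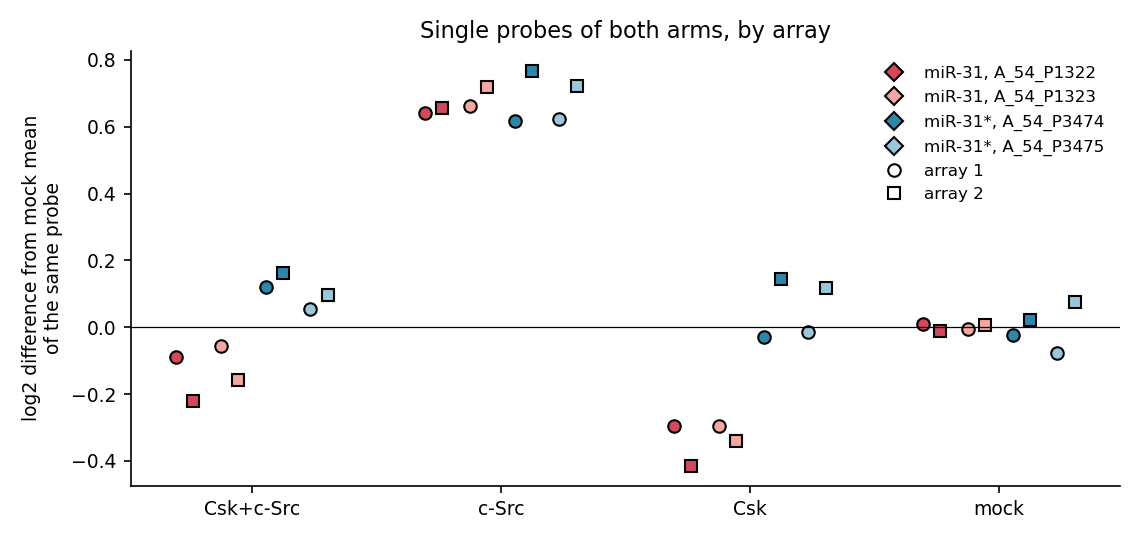
log2 difference of each probe from its own mean over the mock arrays, for the 2 probes of miR-31 (red) and the 2 of miR-31* (blue), by group. Circles are array 1 and squares array 2. All 4 probes lie above 0 on both c-Src arrays, while on the Csk arrays only the miR-31 probes lie below 0 on both.

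The next comparison asked what Csk does in cells given c-Src. miR-31 fell to a log2 level of 1.53 ± 0.09 in Csk+c-Src cells, against 2.33 ± 0.02 in c-Src cells (SD, n = 2 each). The log2 difference was -0.80 (SE 0.05, limma adjusted p = 0.000216), so the Csk+c-Src level was 0.574 of that in c-Src cells. Here 44.9% of all tested microRNAs passed, and miR-31 was number 18 by size among the 71 that passed as lower. The difference was -0.73 in slide row 1 and -0.88 in slide row 2. Single probes gave -0.80 for A_54_P1322 and -0.80 for A_54_P1323. It passed under all 24 alternatives, with log2 differences from -0.92 to -0.57. This comparison and the first share the c-Src arrays, so their sizes are not independent of each other.

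Csk was also added without introduced c-Src. miR-31 fell in these cells, to 1.32 ± 0.06, against 1.66 ± 0.01 in mock cells (log2 level, SD, n = 2 each). The log2 difference was -0.34 (SE 0.05, limma adjusted p = 0.00345), and 55.1% of all tested microRNAs passed in this comparison. Within slide row 1 the difference was -0.30 and within slide row 2 it was -0.38. It did not pass in the authors' unscaled table (-0.27, adjusted p = 0.0926) or after normexp background correction (-0.24, adjusted p = 0.2), and it was -0.52 with quantile normalization and with the 75th percentile over all mouse microRNAs, and -0.51 with the summed signal. Set against the median of all microRNAs, it was -0.41 here and ran from -0.50 to 0.05 over the 7 other ways, the last after normexp.

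In the scaling used here, the effect of c-Src where Csk is present was smaller, by an amount that depended on the scaling. miR-31 rose to 1.53 ± 0.09 in Csk+c-Src cells, against 1.32 ± 0.06 in Csk cells (log2 level, SD, n = 2 each), a log2 difference of 0.20 (SE 0.05, 95% interval 0.07 to 0.34, limma adjusted p = 0.0216). In this comparison 60.9% of all tested microRNAs passed, and the within-row differences were 0.22 and 0.19. The call ended without Csk+c-Src array 1 (0.14, adjusted p = 0.089), without mock array 2 (0.21, adjusted p = 0.0641), with no detection filter (adjusted p = 0.0909), with only the 4 arrays compared (adjusted p = 0.0932), in the unscaled table (0.32, adjusted p = 0.052) and after normexp (0.21, adjusted p = 0.338). Relative to the median of all microRNAs the difference was 0.36, and 0.31 to 0.44 over the 7 other ways. Unadjusted for that median it was 0.36 without Csk array 2 and 0.55 with the 75th percentile over all mouse microRNAs, both still passing, and it was positive under all 24 alternatives.

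Cells given both genes and cells given neither lay close together. The log2 level of miR-31 was 1.53 ± 0.09 in Csk+c-Src cells and 1.66 ± 0.01 in mock cells (SD, n = 2 each), a log2 difference of -0.14 (SE 0.05, 95% interval -0.27 to -0.00057, limma adjusted p = 0.103). The unadjusted p was 0.0493, and 34.2% of all tested microRNAs passed in this comparison. The sign was not stable, since the difference was 0.03 with the 75th percentile over all mouse microRNAs, 0.05 in the unscaled table and 0.01 without Csk array 2. A difference of the size seen with c-Src alone lies outside the interval.

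The interaction term asked whether the c-Src effect differed between cells with and without Csk. The c-Src effect on miR-31 was a log2 difference of 0.20 with Csk and 0.66 without Csk, and the difference between the 2 effects was -0.46 (SE 0.08, 95% interval -0.65 to -0.27, limma adjusted p = 0.00561). In slide row 1 it was -0.43 and in slide row 2 it was -0.49. This test passed for 50.6% of all tested microRNAs, whose median was -0.17, so that miR-31 lay 0.29 below the median. The size depended on the scaling: the term was -0.05 with the 75th percentile over all mouse microRNAs (adjusted p = 0.713), -0.17 with the summed signal (adjusted p = 0.199), -0.22 with quantile normalization (adjusted p = 0.307) and -0.54 after normexp (adjusted p = 0.124), none of which passed. It was negative under all 23 alternatives and was -0.31 without Csk array 2 (adjusted p = 0.0193).

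**Figure D3:**
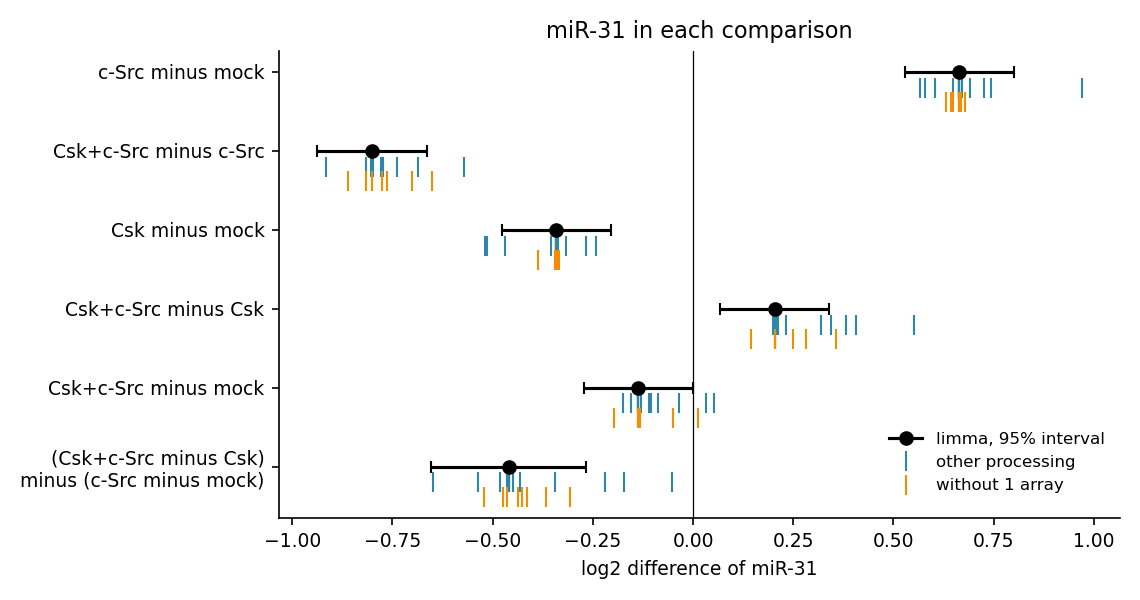
log2 differences of miR-31 in the 6 comparisons. Black points are limma estimates with 95% intervals, blue ticks are the same differences under other processing and orange ticks are those with 1 array left out. The first and second comparisons stay on their side of 0 in every setting, the Csk+c-Src against mock difference crosses 0, and the interaction runs from -0.65 to -0.05.

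The other strand of the hairpin was then examined. miR-31* had a scaled signal of 0.708 and 0.729 in Csk+c-Src cells, 1.03 and 1.12 in c-Src cells, 0.659 and 0.731 in Csk cells, and 0.644 and 0.695 in mock cells. The c-Src arrays stood above all others, and the Csk arrays overlapped with those of Csk+c-Src and of mock. All 160 spots of miR-31* were well above background. miR-31* rose with c-Src against mock by 0.68 (SE 0.07, limma adjusted p = 0.00143) and fell with Csk in c-Src cells, at -0.58 (SE 0.07, limma adjusted p = 0.00217). Both strands thus moved the same way in these comparisons, which share the c-Src arrays.

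The strands did not show the same values where Csk was added alone. miR-31* had a log2 level of -0.53 ± 0.11 in Csk cells and -0.58 ± 0.08 in mock cells (SD, n = 2 each), a log2 difference of 0.05 (SE 0.07, 95% interval -0.14 to 0.24, limma adjusted p = 0.588), against -0.34 for miR-31. Its sign turned under 4 of the alternatives that change the scaling or the background. For Csk+c-Src against Csk it gave 0.05 (SE 0.07, adjusted p = 0.62), which became 0.32 and passed without Csk array 2 (adjusted p = 0.0179) and 0.40 and passed with the 75th percentile over all mouse microRNAs (adjusted p = 0.00903). For Csk+c-Src against mock it gave 0.10 (SE 0.07, adjusted p = 0.312), which became 0.25 and passed without Csk array 2 (adjusted p = 0.0305). The interaction was -0.63 for miR-31* (SE 0.10, limma adjusted p = 0.0058), -0.36 without Csk array 2 (adjusted p = 0.0359), and it did not pass without Csk+c-Src array 2 (-0.62, adjusted p = 0.0565), with the 75th percentile over all mouse microRNAs (-0.22, adjusted p = 0.17) or after normexp (-0.48, adjusted p = 0.14). The exact permutation test over the 4 groups gave p = 0.0667 for the level of miR-31*, against p = 0.00952 for miR-31.

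The ratio of the strands on the same array needs no scaling between arrays. The log2 ratio of miR-31 to miR-31* signal was 2.08 and 1.92 in Csk+c-Src cells, 2.27 and 2.18 in c-Src cells, 1.97 and 1.73 in Csk cells, and 2.30 and 2.18 in mock cells. Probes differ in their response, so only its change between groups carries meaning, not its size. The ratio averaged 2.002 ± 0.12 in Csk+c-Src cells, 2.23 ± 0.07 in c-Src cells, 1.85 ± 0.17 in Csk cells and 2.24 ± 0.08 in mock cells (SD, n = 2 each). All 4 arrays of cells given Csk had a lower ratio than all 4 arrays of cells not given it. How many other strand pairs separate in this way was not counted, so the separation does not set this pair apart. The exact permutation test over the 4 groups gave p = 0.0667, which does not pass, and this ratio was chosen after the values were seen. The test exchanges arrays between the slide rows as well as between groups, and the array in row 1 had the higher ratio in 4 of 4 groups, by 0.09 to 0.24. That difference between rows counts as spread within groups in this test, and its part in the p-value was not tested.

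microRNAs with the pattern most like that of miR-31 were ranked by Pearson's r with its log2 level over the 8 arrays, among 142 whose group means spanned at least 0.5. These r values describe 8 arrays in 4 groups that share scaling and depth. The ranking used the same arrays as the tests. The directions and adjusted p-values given below for the chosen microRNAs thus follow largely from the choice and are not separate evidence. The highest 5 were miR-222 (r = 0.983), miR-29c (0.982), miR-101a (0.976), miR-29a (0.971) and miR-29a* (0.967). miR-29a and miR-29c have the same seed, which only miR-29b shares in the table, and none of the 5 has the seed of miR-31.
miR-222: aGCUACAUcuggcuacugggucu
miR-29c: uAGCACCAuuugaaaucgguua
miR-29a: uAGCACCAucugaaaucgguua
miR-101a: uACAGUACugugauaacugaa

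miR-222, which is known to lower the cell cycle inhibitor p27, had a wider range than miR-31. Its scaled signal was 0.344 and 0.299 in Csk+c-Src cells, 1.03 and 1.03 in c-Src cells, 0.171 and 0.153 in Csk cells, and 0.352 and 0.326 in mock cells. It was high in c-Src cells and low in Csk cells, as miR-31 was, with group means that spanned 2.67 on the log2 scale. miR-29c, which is known to lower collagen messages, rose with c-Src against mock by 0.82 (SE 0.05, limma adjusted p = 0.000217) and fell with Csk in c-Src cells, at -0.76 (SE 0.05, limma adjusted p = 0.000231). miR-29a differed by 0.92 in c-Src against mock (limma adjusted p = 0.000104) while Csk+c-Src over c-Src gave -0.84 (limma adjusted p = 0.000107). miR-101a, known to lower the histone methyltransferase Ezh2, rose by 0.43 with c-Src against mock (limma adjusted p = 0.00501), a difference that was -0.21 after normexp (adjusted p = 0.306) and did not pass without mock array 2 (0.40, adjusted p = 0.0807). miR-29a* lay at the floor on both Csk arrays, and its c-Src against mock difference of 0.89 (adjusted p = 0.00212) was -0.62 after normexp (adjusted p = 0.0644). Between 3 and 5 of the 5 names remained among the highest 5 under the 9 alternatives that change the levels.

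The lowest r belonged to miR-99a (-0.981), miR-322* (-0.964) and miR-574-3p (-0.957). Because they were chosen for a low r on these arrays, directions opposite to miR-31 follow from the choice. They are shown with their seeds to set beside the strands above.
miR-99a: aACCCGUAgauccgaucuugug
miR-322*: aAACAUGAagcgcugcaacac
miR-574-3p: cACGCUCAugcacacacccaca

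miR-99a, which is known to lower mTOR, had a scaled signal of 1.43 and 1.38 in Csk+c-Src cells, 0.591 and 0.609 in c-Src cells, 2.06 and 2.02 in Csk cells, and 1.14 and 1.19 in mock cells. The c-Src arrays were lowest and the Csk arrays highest, the reverse of miR-31. Its log2 difference was -0.96 in c-Src against mock (limma adjusted p = 5.75e-05), and Csk+c-Src over c-Src gave 1.23 (limma adjusted p = 3.56e-05). miR-322* differed by -2.08 and 1.97 in the same comparisons, and its c-Src level of -5.61 lay close to the floor of -5.69. miR-574-3p differed by -1.06 and 1.05. After normexp, miR-322* and miR-574-3p did not pass in either comparison (-0.82 and 0.31 for miR-322*, -0.74 and 0.22 for miR-574-3p).

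**Figure D4:**
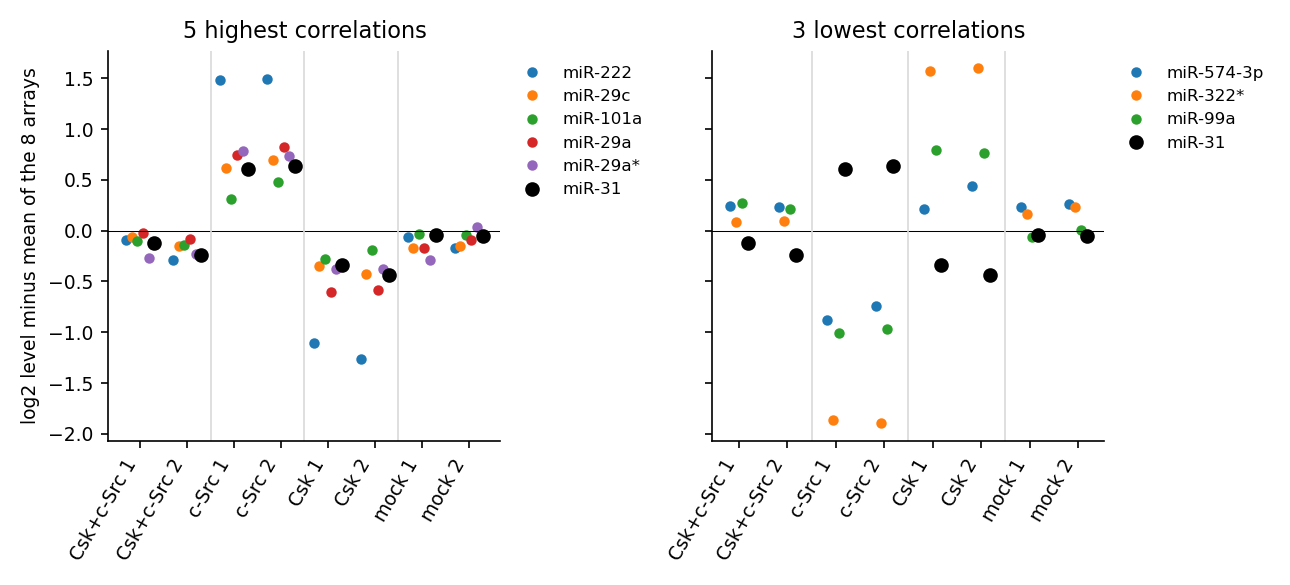
log2 level minus its mean over the 8 arrays, for miR-31 (black) with the 5 microRNAs of highest r (left) and the 3 of lowest r (right), by array. miR-31 and the 5 on the left are highest on the c-Src arrays, and the 3 on the right are lowest there.

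miR-31 belongs to a set of microRNAs that have been tied to invasion and metastasis, and a list of 29 others of this set was examined, of which 19 were tested. The list was chosen with earlier results of these data known. It holds genomic neighbours such as miR-221 and miR-222, so its members are not separate results. The counts below describe the list and do not test it against all microRNAs. A member was tested if both arrays of any group detected it, so it could enter through a single group where it was high. miR-9, for example, was detected on 2 of the 8 arrays. With only the 187 microRNAs detected on all 8 arrays, 9 members passed as higher and 0 as lower in c-Src against mock. Of those 187, 96 passed there in either direction. In c-Src against mock, 13 of the 19 passed as higher, 1 as lower and 5 did not pass, with a median of 0.39, against 25.9% higher, 18.5% lower and a median of 0.00 over all tested microRNAs. The split over all microRNAs depended on the scaling, with 63 higher and 45 lower here and 41 higher and 52 lower with the 75th percentile over all mouse microRNAs, where 9 of the 19 were higher. For Csk+c-Src over c-Src, 2 passed as higher, 12 as lower and 5 did not pass, with a median of -0.69, against 15.6% higher, 29.2% lower and a median of -0.08 over all. The count of 13 fell to 5 under normexp and to 8 when the detection filter was dropped or when Csk+c-Src array 2 or mock array 2 was left out, and the count of 12 fell to 5 under normexp. In the interaction, 2 of the 19 passed as higher and 11 as lower, with a median of -0.55, against 13.6% and 37.0% and a median of -0.17 over all.

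miR-221, which lies beside miR-222 in the genome and shares its seed, had a scaled signal of 1.28 and 1.28 in Csk+c-Src cells, 3.19 and 3.42 in c-Src cells, 0.650 and 0.682 in Csk cells, and 1.13 and 1.20 in mock cells. Its log2 difference was 1.496 in c-Src against mock (limma adjusted p = 4.63e-05) while Csk+c-Src over c-Src gave -1.36 (limma adjusted p = 4.53e-05), in the same directions as miR-31. miR-210, which is known to be induced by hypoxia, differed by 1.02 and -0.69 there (limma adjusted p = 0.000344 and 0.00112). miR-146a, known to restrain NF-kappaB signalling, was detected on 6 arrays and on none of Csk+c-Src cells. It rose by 1.73 with c-Src against mock (limma adjusted p = 5.75e-05), which was 0.18 after normexp (adjusted p = 0.435). Its signal before scaling was 35.1 and 39.4 on the mock arrays, below the offset of 50 that normexp added to each spot.

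Members of the list differed in direction, though miR-21 moved as miR-31 did in c-Src against mock. miR-21, which is known to lower tumour suppressors such as Pdcd4, rose by 0.54 with c-Src against mock (SE 0.11, limma adjusted p = 0.0158), with scaled means of 42.6 ± 3.7 in c-Src cells and 29.3 ± 2.3 in mock cells (SD, n = 2 each). That call ended with quantile normalization (0.33, adjusted p = 0.055), with no detection filter (adjusted p = 0.0862) and without c-Src array 2 (0.43, adjusted p = 0.105), Csk+c-Src array 2 (0.52, adjusted p = 0.0669), mock array 1 (0.46, adjusted p = 0.0669) or mock array 2 (0.60, adjusted p = 0.0736). miR-10b, known for promoting invasion in breast carcinoma cells, had a difference of -0.10 in c-Src against mock (limma adjusted p = 0.223), which was 0.20 in the unscaled table and -0.19 and past the threshold with the summed signal (adjusted p = 0.0431), and rose by 0.49 in Csk+c-Src against c-Src (limma adjusted p = 0.00167), a comparison in which miR-31 fell. That call ended after normexp, where the difference was 0.27 (adjusted p = 0.761). In Csk+c-Src against Csk miR-10b (2.04), miR-221 (0.95) and miR-222 (0.99) passed as higher, as miR-31 did (0.20). miR-146a (-2.62) and miR-210 (-0.24) passed as lower in that comparison, and miR-21 did not pass (0.19). Of the members named, miR-10b (-1.65), miR-221 (-0.81) and miR-222 (-1.07) passed as lower in Csk against mock, as miR-31 did. miR-146a (1.01) and miR-210 (0.56) passed as higher there, and miR-21 did not pass (0.06). miR-222 had the highest r with miR-31 on these same arrays, and miR-221 lies beside it. Their agreement with miR-31 is therefore not separate evidence. In Csk against mock, 8 of the 19 passed as higher and 8 as lower, against 38.3% and 16.9% of all tested microRNAs. In Csk+c-Src against Csk, 8 were higher and 9 lower, against 19.3% and 41.6%. In Csk+c-Src against mock, 3 were higher and 5 lower, against 12.3% and 21.8%.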

How the data were processed

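The 8 RNA samples were run on Agilent one-colour mouse microRNA arrays with Cy3, per the labels' protocols. The deposited spot values are intensities that the authors extracted with Agilent Feature Extraction 9.5.3.1; they are background-subtracted and not scaled between arrays, per the file headers. A second deposited table gives gene-level intensity, with values under 1 set to 1 (611 of 611 mouse names matched within a relative tolerance of 1e-05). On Csk array 1 the deposited spot intensity was rounded, by at most 0.0646% for a miR-31 probe.

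Outlier spots were dropped, spots averaged into probes and probes added up per microRNA. Each array was then scaled by its 75th percentile over 187 microRNAs detected everywhere (611.9 to 805.7). A floor of 0.0193 (log2 -5.69) was taken from dim detected microRNAs. Group means were fitted with limma 3.58.1 (R 4.3.3), with 4 residual and 5.09 total degrees of freedom; Benjamini-Hochberg adjustment ran over 243 microRNAs, two-sided, at 0.05. Few arrays limit the precision: with 2 against 2, exact p-values stop at 0.333. Named are miR-31, miR-31*, microRNAs within 5 Mb, the 5 highest and 3 lowest r, 6 members of the invasion list and any sharing the seed. The members and lists were chosen with earlier results of these data known. The replicate number is the slide row, per the file headers. Deviations of same-numbered arrays correlated at r = 0.44, 0.29 and 0.27 among the c-Src, Csk+c-Src and mock groups. In pairs of groups that include Csk, r ran from -0.09 to 0.08. The numbers were not taken to pair the arrays in the main fit, so any slide row effect stayed in its spread. A replicate block was run as an alternative. RefSeq held 10 of 10 strands looked up, with array names matched to arms by hand. Plots used matplotlib 3.10.9 (Python 3.11.15). Alternatives changed the scaling, background correction, detection filter, probe summary, single probes, moderation of the spread, arrays in the fit and replicate block.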

Additional observations from a re-analysis of the deposited data

Results flagged for a closer look

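The interaction term, which compares the c-Src effect in cells with and without Csk, passed the test for both strands of the hairpin in the scaling used here, but not in every other one. It was -0.46 for miR-31 (SE 0.08, limma adjusted p = 0.00561), negative in both slide rows, and -0.63 for miR-31* (SE 0.10, limma adjusted p = 0.0058), also negative in both slide rows (-0.57 and -0.69). The median of this term over all 243 microRNAs was -0.17, and 50.6% of them passed. The term for miR-31 ran from -0.65 to -0.05 over the alternatives and did not pass under 4 of 23. These were the 75th percentile over all mouse microRNAs (adjusted p = 0.713), the summed signal (adjusted p = 0.199), quantile normalization (adjusted p = 0.307) and normexp (adjusted p = 0.124). The term for miR-31* did not pass with the 75th percentile over all mouse microRNAs (-0.22, adjusted p = 0.17), after normexp (-0.48, adjusted p = 0.14) or without Csk+c-Src array 2 (-0.62, adjusted p = 0.0565).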

How the results depend on the processing

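Of the alternatives for miR-31, the direction and the side of the threshold were kept in 24 of 24 for c-Src against mock and for Csk+c-Src against c-Src, 22 of 24 for Csk against mock, 18 of 24 for Csk+c-Src against Csk, 21 of 24 for Csk+c-Src against mock and 19 of 23 for the interaction; the cause of the changes was not tested. Csk against mock did not pass in the unscaled table (-0.27) or after normexp (-0.24). Csk+c-Src against Csk did not pass in the unscaled table (0.32), after normexp (0.21), with no detection filter (0.20) or with only the groups compared (0.20). Csk+c-Src against mock turned to 0.033 with the 75th percentile over all mouse microRNAs and to 0.053 in the unscaled table. The interaction did not pass with the 75th percentile over all mouse microRNAs (-0.054), the summed signal (-0.17), quantile normalization (-0.22) or normexp (-0.54). Leaving out 1 array gave 0.63 to 0.68 for c-Src against mock, -0.86 to -0.65 for Csk+c-Src against c-Src, -0.39 to -0.33 for Csk against mock, 0.14 to 0.36 for Csk+c-Src against Csk, -0.20 to 0.012 for Csk+c-Src against mock and -0.52 to -0.31 for the interaction. A lone array was assumed to vary like the other groups.

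With the replicate block, which is also the slide row, miR-31 kept every call, at 0.66 (limma adjusted p = 0.000911) for c-Src against mock, -0.80 (0.000526) for Csk+c-Src against c-Src, -0.34 (0.00431) for Csk against mock, 0.20 (0.0204) for Csk+c-Src against Csk, -0.14 (0.0817, not passed) for Csk+c-Src against mock and -0.46 (0.00603) for the interaction. In Csk+c-Src against c-Src, miR-21 did not pass in the main fit (-0.29, limma adjusted p = 0.0943) but passed with the block (-0.29, limma adjusted p = 0.0127). It also passed with the median scaling (-0.31, limma adjusted p = 0.0307) and in the unscaled table (-0.41, limma adjusted p = 0.00833). The use of an unrounded signal column was chosen after seeing the data and changed no call. Over the 4 groups the exact permutation p of miR-31 was 0.00952 or 0.019 under every alternative run.

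miR-31* in Csk against mock turned to -0.12 with the 75th percentile over all mouse microRNAs, -0.075 with the median, -0.12 with the summed signal and -0.0022 after normexp, and ran from -0.071 to 0.13 without 1 array. Its Csk+c-Src against Csk difference passed with the 75th percentile over all mouse microRNAs (0.40), the median (0.23), the summed signal (0.25) and quantile normalization (0.25), and ran from -0.024 to 0.32 without 1 array. Its Csk+c-Src against mock difference passed with the 75th percentile over all mouse microRNAs (0.27), quantile normalization (0.25) and in the unscaled table (0.29), and ran from 0.049 to 0.25. Its interaction did not pass with the 75th percentile over all mouse microRNAs (-0.22) or after normexp (-0.48), and ran from -0.71 to -0.36. After normexp, c-Src against mock turned to -0.21 for miR-101a and -0.62 for miR-29a*, and that of miR-10b turned to 0.20 in the unscaled table. After normexp the numbers of microRNAs passing were 28, 18, 18, 40, 1 and 1 in the 6 comparisons in the order above. In the main setting they were 108, 109, 134, 148, 83 and 123. The part of the offset of 50 in these lower numbers was not tested. With no detection filter 66 passed for c-Src against mock and 46 for Csk+c-Src against mock. Without 1 array, the counts that moved most were 57 without mock array 2 and 66 without Csk+c-Src array 2 for c-Src against mock, 31 without Csk+c-Src array 2, 32 without mock array 2 and 53 without Csk+c-Src array 1 for Csk+c-Src against mock, and 80 without Csk+c-Src array 2 for the interaction.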

Other observations

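Within each group the array in slide row 2 had the lower ratio of the miR-31 probes. The signal of probe A_54_P1322 over that of A_54_P1323 was 1.67 and 1.64 on arrays 1 and 2 of Csk+c-Src cells, 1.69 and 1.64 of c-Src cells, 1.71 and 1.62 of Csk cells, and 1.73 and 1.69 of mock cells. The log2 ratio of miR-31 to miR-31* was also lower on array 2 in 4 of 4 groups, by 0.09 to 0.24. These ratios compare values within an array and do not depend on the scaling between arrays. The slide row holds all 4 groups.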
